A study of Arabidopsis thaliana and Zea mays with 12 samples.

Results

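Expression of 10 genes for sugar carriers of the SWEET, SUC and STP families, chosen by their gene identifiers, was examined among the 27411 genes of the expression table. They are SWEET11, SWEET12, SWEET16, SWEET17, SUC1, SUC2, SUC4, SUC5, STP1 and STP13, and all 10 were found in the table. The study mapped N4-acetyldeoxycytosine (4acC), a DNA modification, in Arabidopsis and set it beside gene expression. Expression was measured by mRNA-seq in 2 biological replicates of untreated wild-type Col-0, grown at 22 °C for 3 weeks. The sample labels give the tissue as leaves, while the methods name plants, and the samples are called leaves here after the labels. These 2 libraries form the only group used, so no other genotype, treatment or tissue stands against them and no test between conditions was made. The other 10 of the 12 samples, the 4acC immunoprecipitations from wild type, NH2OH-treated wild type, met1, rdd and maize B73 and the input, were not analysed here.

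A leaf that exports sugar makes sucrose in the cytosol of mesophyll cells and passes it to the phloem. SWEET proteins let sugars pass down their gradient, out of the cell or across the vacuolar membrane. SUC proteins are proton-coupled sucrose carriers, and STP proteins are proton-coupled carriers that take up monosaccharides from the cell wall space. In Arabidopsis leaves, SWEET11 and SWEET12 release sucrose from phloem parenchyma cells into the cell wall space, from where SUC2 loads it into companion cells.

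Several of the 10 genes are paralogs that are alike to differing degrees, and the sources used here do not say how reads were assigned to such genes. The stretches shown are the places where the coding sequences of 3 pairs of paralogs match without a difference over the longest distance. The pairs are both plasma membrane SWEETs, both vacuolar SWEETs, and the SUC genes that lie in tandem. Capitals mark the shared run and lower case letters the 15 flanking bases on each side, written 5′ to 3′ on the coding strand from the TAIR10.1 assembly. The SWEET11 stretch lies at chr3:18053652-18053710 (minus strand) and the SWEET12 stretch at chr5:7972745-7972803 (minus strand), both in exon 5 of their gene.
SWEET11: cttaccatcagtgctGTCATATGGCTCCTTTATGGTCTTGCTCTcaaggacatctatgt
SWEET12: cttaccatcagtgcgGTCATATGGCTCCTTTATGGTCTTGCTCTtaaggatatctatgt
The SWEET16 stretch lies at chr3:5685962-5686010 and the SWEET17 stretch at chr4:9032889-9032937, both on the minus strand and in exon 3.
SWEET16: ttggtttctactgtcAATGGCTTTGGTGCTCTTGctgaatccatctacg
SWEET17: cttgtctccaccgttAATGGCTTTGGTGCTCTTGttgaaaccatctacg
The SUC1 stretch lies at chr1:27054982-27055052 and the SUC5 stretch at chr1:27059143-27059213, both on the plus strand and in exon 1.
SUC1: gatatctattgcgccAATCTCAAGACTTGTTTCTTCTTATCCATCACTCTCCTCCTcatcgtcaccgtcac
SUC5: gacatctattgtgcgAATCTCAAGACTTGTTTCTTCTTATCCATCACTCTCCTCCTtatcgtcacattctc

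The shared run was 29 bases for SWEET11 and SWEET12, whose coding sequences were identical at 80.4% of aligned positions. It was 19 bases for SWEET16 and SWEET17 (65.4% identical) and 41 bases for SUC1 and SUC5 (83.5% identical). SUC1 and SUC5 are also neighbours, 1916 bases apart in the same orientation on chromosome 1. SUC2 was 75.3% identical to SUC1 and 74.1% to SUC5, while SUC4 was at most 58.5% identical to another of the 4 SUC genes, and STP1 and STP13 were 62.5% identical. Words of 50 bases were read along the transcripts of all 10 genes and looked up in the genome. No such word occurred in a second place for 9 of the 10 genes, and for STP1 12 of 2434 words did (0.493%). Words that cross a splice site are not in the genome and were not compared. A read of the stated paired-end length is longer than every shared run among these paralogs.

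Expression was given as FPKM, the fragments of a gene scaled to exon length and to the mapped fragments of the library. Among the 21309 genes above 0 in both replicates, 99.2% had values that behaved as whole reads divided by a gene length and a library total. Reads and lengths were recovered for 18628 genes, all 10 among them, with totals of 93100036 reads in replicate 1 and 105573623 in replicate 2. Cufflinks, the tool named for these values, estimates fragments and does not normally give whole ones, and the annotation behind the lengths is not stated, so reads and lengths are those the values imply. Together the 10 genes held 47195 reads in replicate 1 and 52401 in replicate 2. The sources used here do not say whether 1 count stands for a read or a read pair, and intervals taken from these counts cover counting error only.

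In these leaves SWEET17, which carries fructose across the vacuolar membrane, stood far above the other 9 genes, and SUC4 and SUC5 lay at the bottom. The means spanned from 180 FPKM for SWEET17 to 0.670 FPKM for SUC5, a 269-fold range, with a median of 20.2 FPKM. Of the 10 genes 9, that is all but SUC5, had a mean above 1 FPKM, a cut the study used beside its definition of expressed genes as those above 0, where 47.7% of all genes in the table did. Of the 10 genes 7 were in the top 25% of all genes by mean, which began at 6.10 FPKM. SWEET12 and SUC4 fell in the next 25% and SUC5 in the group below it. The genes were picked by name and known function, with earlier results of these data known, and their levels describe these leaves without a test.

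**Figure D1:**
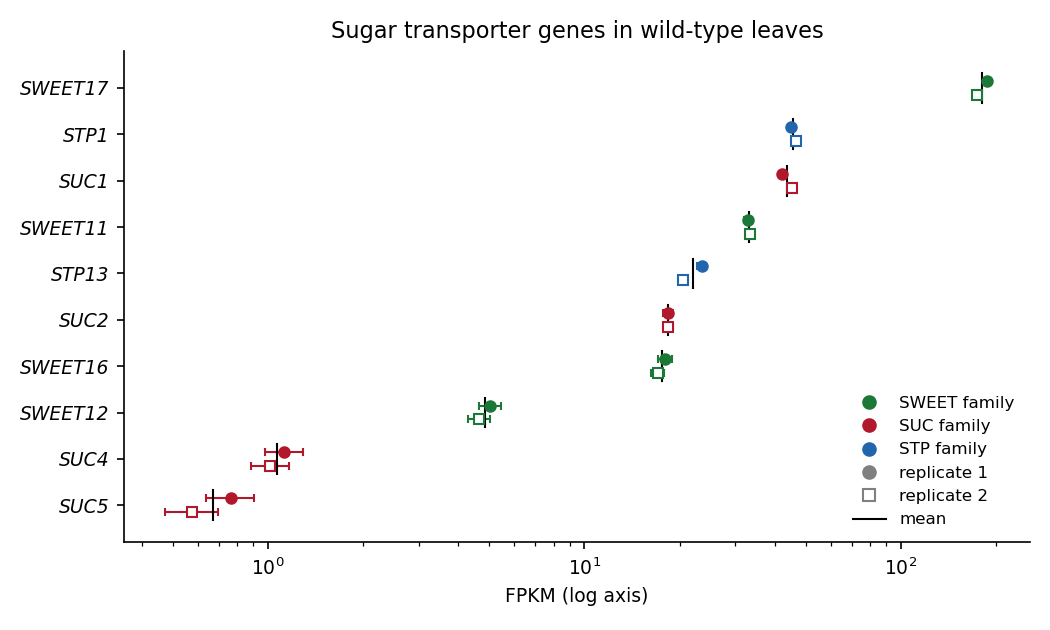
FPKM of the 10 sugar transporter genes (log axis), with replicate 1 as filled circles, replicate 2 as open squares, the mean as a black line and 95% counting intervals as bars. SWEET17 stands alone near 180 FPKM, 6 genes have means between 17.5 and 45.7 FPKM, and SWEET12, SUC4 and SUC5 are lower.

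**Figure D2:**
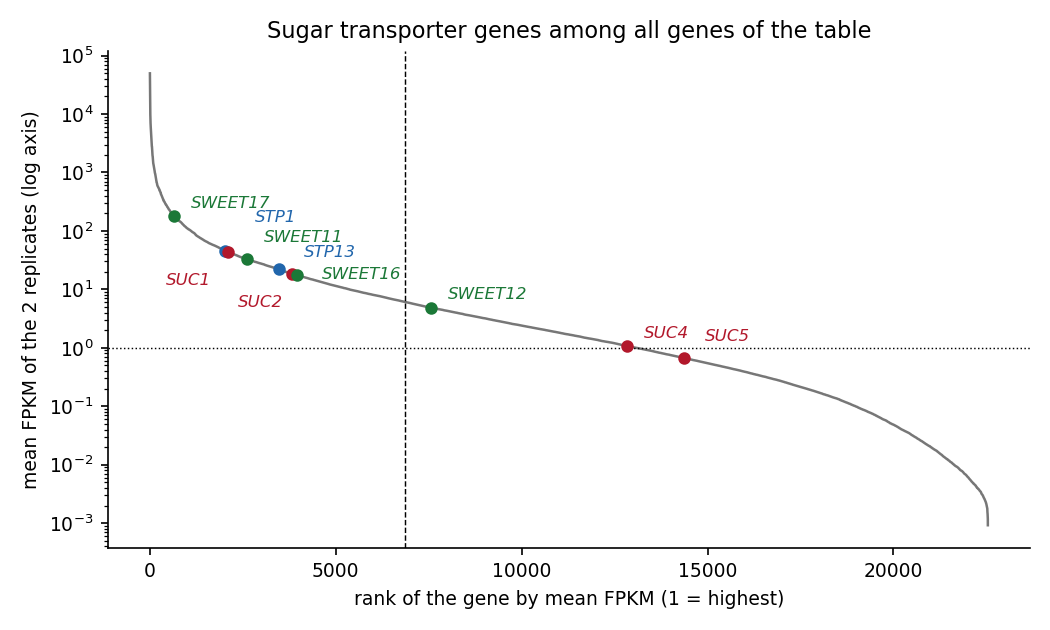
Mean FPKM of every gene above 0 (grey line, log axis) against its rank among 27411 genes, with the 10 genes as coloured points (SWEET green, SUC red, STP blue). The dashed line marks the top 25% of genes and the dotted line 1 FPKM; 7 points lie left of the dashed line and SUC5 lies below the dotted one.

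The 2 plasma membrane SWEETs of phloem parenchyma were unequal. SWEET11 (AT3G48740, chr3:18052466-18054832, minus strand) had 32.9 FPKM in replicate 1 and 33.4 FPKM in replicate 2, a mean of 33.2 ± 0.338 (SD, n = 2), from 4014 and 4618 reads. SWEET12 (AT5G23660, chr5:7971647-7973995, minus strand) had 5.05 and 4.65 FPKM, a mean of 4.85 ± 0.285 (SD, n = 2), from 598 and 624 reads. The replicates did not overlap, and the level of SWEET11 was 6.52 times that of SWEET12 in replicate 1 and 7.19 times in replicate 2. The 2 coding sequences match in a row for at most the 29 bases printed above. Their summed level was nearly the same in both libraries, at 38.0 FPKM in each. Fewer cells of a type and less RNA per cell cannot be told apart in RNA from a whole tissue.

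SUC2 (AT1G22710, chr1:8030587-8033156, minus strand), the companion cell carrier that takes sucrose into the phloem, had the closest replicates of the 10 genes. It was at 18.4 FPKM in both libraries, with a mean of 18.4 ± 0.0396 (SD, n = 2) from 3347 and 3807 reads. The level of SWEET11 exceeded that of SUC2 1.79 times in replicate 1 and 1.81 times in replicate 2, so that the efflux gene lay above the loading gene in both libraries by nearly the same ratio.

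SUC1 (AT1G71880, chr1:27054030-27056464, plus strand) encodes a plasma membrane sucrose carrier best known from pollen, roots and trichomes. It had the highest level of the SUC genes, with 42.0 FPKM in replicate 1 and 45.2 FPKM in replicate 2 and a mean of 43.6 ± 2.27 (SD, n = 2) from 7579 and 9252 reads. This was 2.29 and 2.45 times the level of SUC2 in the same libraries. The pollen markers VGD1, PPME1 and ACA9 were listed at 0 in both libraries and AHA8 averaged 0.399 FPKM, while the root marker PYK10 averaged 7.50 FPKM and the other 5 root markers lay below 1 FPKM. No list of trichome markers was used, and the cells behind the level of SUC1 were not tested.

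SUC5 (AT1G71890, chr1:27058381-27060786, plus strand), the tandem neighbour of SUC1, is known from the endosperm, where its protein carries sucrose and biotin. It had 0.762 FPKM in replicate 1 and 0.578 FPKM in replicate 2, a mean of 0.670 ± 0.131 (SD, n = 2) from 128 and 110 reads, the lowest of the 10 genes. SUC1 was higher than SUC5 by 55.1 times in replicate 1 and 78.3 times in replicate 2. Adjacent copies that are alike over most of their coding sequence were therefore far apart in level. All 6 seed markers were below 1 FPKM, the highest being SESA1, a seed storage albumin, at 0.109 FPKM. They were listed as markers of seed, and no separate list for the endosperm was used.

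The vacuolar genes held both the highest and one of the lowest levels. SWEET17 (AT4G15920, chr4:9030486-9033648, minus strand) had 186 FPKM in replicate 1 and 173 FPKM in replicate 2, a mean of 180 ± 9.24 (SD, n = 2) from 17408 and 18357 reads. It ranked 662 of 27411 genes, above 97.6% of the table, and alone made up 50% of the summed FPKM of the 10 genes in replicate 1 and 48.0% in replicate 2. SWEET16 (AT3G16690, chr3:5684317-5686544, minus strand), which carries several sugars across the same membrane, had 18.0 and 17.1 FPKM, a mean of 17.5 ± 0.676 (SD, n = 2) from 1613 and 1732 reads. The level of SWEET17 was 10.4 times that of SWEET16 in replicate 1 and 10.2 times in replicate 2. Their coding sequences agree at 65.4% of aligned positions and share at most 19 bases in a row, as printed above.

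SUC4 (AT1G09960, chr1:3243986-3247216, plus strand), which moves sucrose out of the vacuole with protons, had 1.13 FPKM in replicate 1 and 1.02 FPKM in replicate 2. Its mean was 1.07 ± 0.0771 (SD, n = 2) from 207 and 212 reads, just above the threshold of 1 FPKM. The counting interval reached below 1 FPKM in both libraries, from 0.978 to 1.29 in replicate 1 and from 0.885 to 1.16 in replicate 2, so at this depth the side of the threshold is not settled for SUC4. The level of SUC2 exceeded that of SUC4 16.3 times in replicate 1 and 18.1 times in replicate 2.

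The hexose carriers lay in the upper part of the order. STP1 (AT1G11260, chr1:3777236-3780823, plus strand), a high-affinity proton symporter for monosaccharides that is found in guard cells among other places, had 44.8 FPKM in replicate 1 and 46.7 FPKM in replicate 2. Its mean was 45.7 ± 1.29 (SD, n = 2) from 7950 and 9383 reads. STP13 (AT5G26340, chr5:9243398-9247540, minus strand), a hexose symporter known to be induced by pathogens, had 23.4 and 20.5 FPKM, a mean of 22.0 ± 2.11 (SD, n = 2) from 4351 and 4306 reads. STP1 was 1.91 times as high as STP13 in replicate 1 and 2.28 times in replicate 2, with no overlap. STP1 is the only one of the 10 genes that overlaps another gene in the TAIR10.1 annotation, sharing 438 bases with AT1G11270 on the opposite strand. AT1G11270 averaged 1.53 FPKM, and the sources used here do not say whether the counting used strand.

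From highest to lowest mean the order was SWEET17, STP1, SUC1, SWEET11, STP13, SUC2, SWEET16, SWEET12, SUC4 and SUC5, and it was the same in each replicate. SWEET17 was 4.16 times STP1 in replicate 1 and 3.72 times in replicate 2, a gap far wider than the spread of either gene. STP1 and SUC1 were the only neighbours whose replicate values overlapped, at 45.7 ± 1.29 against 43.6 ± 2.27 FPKM (SD, n = 2 each). SUC2 and SWEET16 did not overlap but differed 1.05-fold in their means, little more than the SD of SWEET16. The next steps down were wider, as SWEET16 was 3.62 times SWEET12 and SWEET12 was 4.52 times SUC4. With 2 libraries no exact test over samples can separate such neighbours.

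The order depended in part on the gene length by which the reads were divided. The recovered length was 1003 bases for SWEET17, where the RefSeq transcript has 1287, and 1905 bases for STP1, where it has 2483. The same reads were also divided by the RefSeq transcript with the longest coding sequence, a choice made after the values were seen. This lowers SWEET17 to 140 FPKM, SWEET16 to 16.6 FPKM, STP1 to 35.1 FPKM and SUC1 to 38.2 FPKM. SUC1 then stands above STP1, and SUC2 at 17.6 FPKM above STP13 at 17.0 FPKM, while the other 6 genes keep their places. SUC4 then falls below 1 FPKM, to 0.954. SWEET16 has 3 RefSeq transcripts, and the 1 used has 1016 bases. The longest has 1531, and no level was computed on it. Dividing by the RefSeq coding length instead, also chosen after the values were seen, left all 10 genes in their places and SUC4 above 1 FPKM, at 1.38.

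The replicates were compared because biological replicates of 1 genotype set the error of every level given above. None of the 10 genes differed by at least 1.5-fold on the scale of log2(FPKM + 1), where 0.383% of all genes did. The added 1 FPKM shrinks the ratios of weakly expressed genes, and the median of all genes was 0.823 FPKM. The share among only the genes above 1 FPKM was not counted. The log2 ratios of replicate 2 over replicate 1 lay between -0.19 for STP13 and 0.10 for SUC1, with a median of -0.08, beside a median of -0.07 with an SD of 0.17 over the genes above 1 FPKM. Replicate 2 was higher for 4 of the 10 genes and lower for 6. The coefficient of variation was 0.215% for SUC2 and 19.5% for SUC5, and its median of 5.17% compares with 6.88% over the genes above 1 FPKM.

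Counting error alone, with each count taken as independent, did not cover all of these small differences. If both reads of a pair were counted, the intervals are too narrow. Fewer genes could then be called, among the 10 and over the table. On the reads, without a pseudocount, the 95% counting interval of the ratio excluded equality for 5 of the 10 genes, where it did for 48.8% of the 11263 genes above 1 FPKM with recovered reads. SUC1 and STP1 were higher in replicate 2, with log2 ratios of 0.11 (0.06 to 0.15) and 0.06 (0.01 to 0.10). SWEET17 was lower, at -0.10 (-0.13 to -0.07), as were STP13 at -0.20 (-0.26 to -0.14) and SUC5 at -0.40 (-0.78 to -0.02). Among all genes so called, 4192 were lower in replicate 2 and 1302 higher. These calls are against equality, while the median log2 ratio of the genes above 1 FPKM was -0.085 without a pseudocount. The intervals of SWEET17 and SUC5 hold that median. The interval of STP13 lies below it, and those of SUC1, STP1, SWEET11 and SUC2 lie above it. For SWEET11, SWEET12, SWEET16, SUC2 and SUC4 the interval included equality, and for SUC4 it was as wide as -0.43 to 0.14. SUC5 lies below 1 FPKM and so outside that background, and 4 of the other 9 genes were called. The share of the 10 genes beyond counting error was thus near that of the table.

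**Figure D3:**
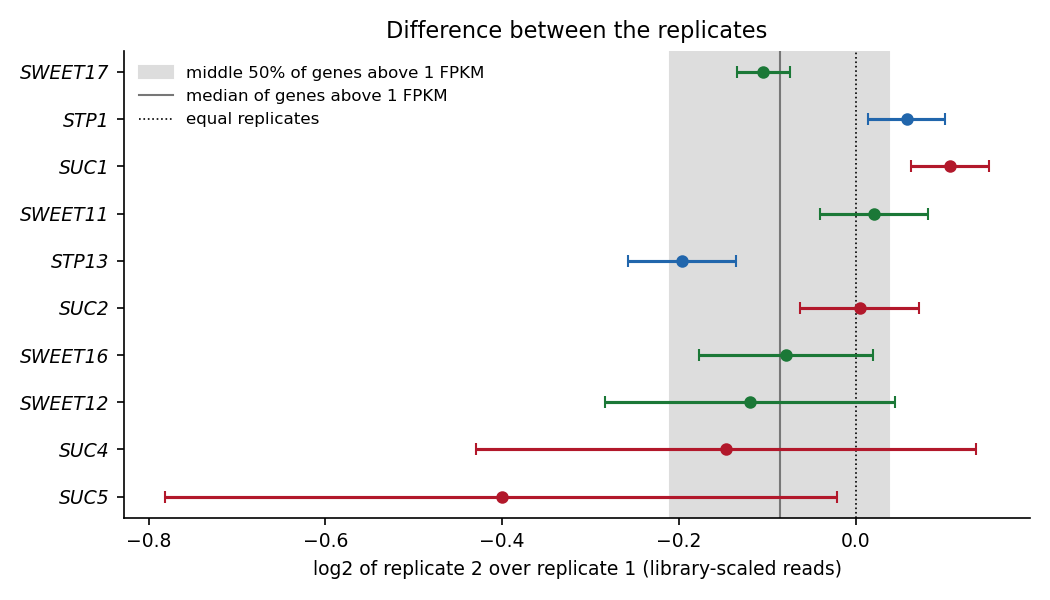
Log2 ratio of replicate 2 over replicate 1 of the library-scaled reads for each of the 10 genes, with 95% counting intervals. The grey band holds the middle 50% of the genes above 1 FPKM and the grey line their median; 7 of the 9 genes above 1 FPKM lie inside the band, with SUC1 and STP1 to its right.

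Set among their families, the 10 genes carried most of the measured transcript level. The 3 families together have 40 genes in the table, of which the 10 took 80.7% of the summed FPKM, and 9 of the 10 were above 1 FPKM against 12 of the other 30. The median of the 10 genes was 20.2 FPKM, against 0.122 FPKM for the other 30. The 10 genes were chosen with earlier results of these data known. The share, the counts and the medians therefore only describe these leaves and do not compare independently chosen sets.

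Among the 17 SWEET genes, SWEET11, SWEET12, SWEET16 and SWEET17 took 81.1% of the summed FPKM. SWEET1, a glucose carrier, followed with 24.6 ± 3.75 FPKM (SD, n = 2), above SWEET16. SWEET2, whose protein lies in the vacuolar membrane, had 15.6 ± 0.652 FPKM and SWEET4 had 9.93 ± 1.04 FPKM, so both stood above SWEET12. SWEET13, a sucrose carrier of the same clade as SWEET11 and SWEET12, had 1.74 ± 0.154 FPKM. Of the 17 genes 9 were above 1 FPKM and 3, SWEET3, SWEET6 and SWEET9, were listed at 0 in both replicates.

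SUC1, SUC2, SUC4 and SUC5 took 97.1% of the summed FPKM of the 9 SUC genes. SUC3, another plasma membrane sucrose carrier, had 1.89 ± 0.198 FPKM (SD, n = 2) and thereby exceeded SUC4 and SUC5. SUC6 was listed at 0 in replicate 1 and at 0.00640 FPKM in replicate 2, and SUC7, SUC8 and SUC9 were listed at 0 in both.

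STP1 and STP13 took 68.4% of the summed FPKM of the 14 STP genes, the smallest share of the 3 families. STP14, a carrier of galactose, had 17.9 ± 0.617 FPKM (SD, n = 2) and came close below STP13. STP3, STP4 and STP12 had 4.98 ± 0.419, 4.12 ± 0.0958 and 1.57 ± 0.0518 FPKM. Of the 14 genes 8 were above 1 FPKM, and STP2 and STP10 were listed at 0 in both replicates.

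**Figure D4:**
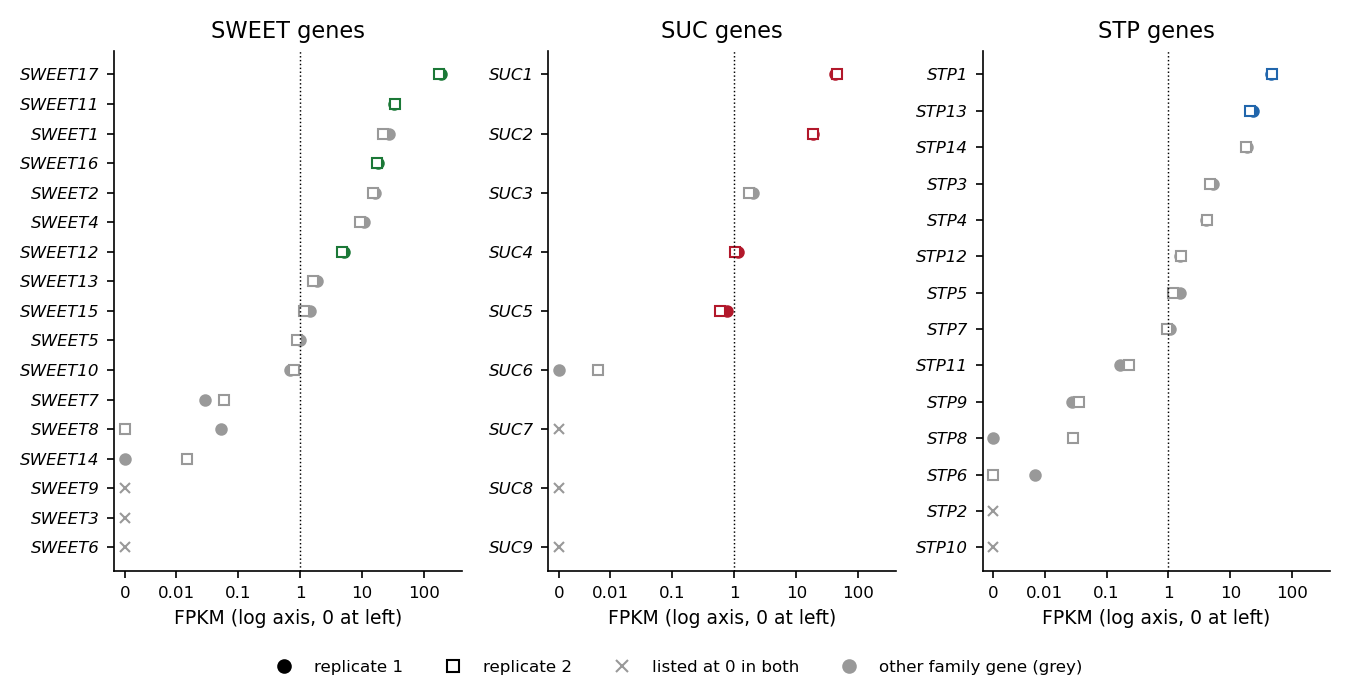
FPKM of every SWEET, SUC and STP gene in replicate 1 (filled circles) and replicate 2 (open squares) on a log axis with 0 drawn at the left end. The 10 genes described are coloured and the other 30 grey, crosses are genes listed at 0 in both replicates, and the dotted line is 1 FPKM.

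Other carriers of sugars were measured in the same leaves. All 6 chloroplast carriers were above 1 FPKM, led by TPT, which exports triose phosphate in the light, at 977 ± 49.2 FPKM (SD, n = 2). The plastid sucrose carrier pSuT had 80.8 ± 3.48 FPKM and the plastid glucose carrier pGlcT 47.3 ± 2.98 FPKM, close to STP1 and SUC1, and GPT1, which carries glucose 6-phosphate, had 14.2 ± 0.0522 FPKM. SWEET17 thus lay between TPT and pSuT. Of 8 other genes for vacuolar and related sugar carriers, 7 were above 1 FPKM, and each was below SWEET16. They were led by ERDL6, a vacuolar glucose exporter, at 13.9 ± 1.94 FPKM and ERD6 at 12.6 ± 1.30 FPKM, followed by VGT2 at 5.51 ± 0.350 and TST1, a sugar importer of the vacuole, at 5.05 ± 0.340 FPKM. Of 5 polyol and inositol carriers 3 were above 1 FPKM, with PLT5 at 12.1 ± 1.30 FPKM, INT1 at 4.53 ± 0.0796 FPKM and INT4 at 1.44 ± 0.0704 FPKM, and INT3 had 0.393 ± 0.0104 FPKM.

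Enzymes that make or cleave sucrose lay mostly below the median of the 10 carriers, 20.2 FPKM. Their medians were 2.49 FPKM for the synthesis genes and 0.677 FPKM for the cleavage genes. The 10 carriers were chosen from their families, while the enzyme lists include weakly expressed paralogs. All 40 genes of the 3 carrier families together had a median of 1.05 FPKM, below that of the synthesis genes. Of 9 synthesis genes 5 were above 1 FPKM, led by the cytosolic fructose bisphosphatase cFBP at 48.5 ± 4.24 FPKM (SD, n = 2), with UGP1 and UGP2, which make UDP-glucose, at 22.1 ± 0.687 and 4.73 ± 0.266 FPKM. SPP2, the phosphatase of the last step of sucrose synthesis, had 10.5 ± 0.870 FPKM. Of 11 cleavage genes 5 were above 1 FPKM, with the cytosolic invertase CINV1 at 17.3 ± 0.521 FPKM, the vacuolar invertases VI2 and VI1 at 9.64 ± 0.227 and 4.06 ± 0.305 FPKM, and the sucrose synthase SUS1 at 2.08 ± 0.182 FPKM. CINV1 was thereby at the level of SWEET16 and SUC2.

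The labelled tissue was checked by marker genes. Mesophyll markers were at the top of the table, with CAB1 at 40786 ± 8201 FPKM, RBCS1A at 24598 ± 3453 FPKM and CA1 at 1884 ± 18.3 FPKM (SD, n = 2). The epidermis markers KCS6, PDF1 and ATML1 were at 108, 34.2 and 4.07 FPKM. Of 9 phloem markers 7 were above 1 FPKM, led by PP2-A1, a companion cell lectin, at 55.0 ± 1.36 FPKM (SD, n = 2), with SULTR2;1 at 7.37 FPKM, NAKR1 at 4.22 FPKM and SEOR1 of sieve elements at 2.77 FPKM. SWEET11 and SUC2 thus lay below PP2-A1 and above the other 8 phloem markers. The guard cell marker GC1 was at 208 ± 33.0 FPKM, MYB60 at 2.17 FPKM, FAMA at 1.83 FPKM and KAT1 at 0.853 FPKM. Of the 4 xylem markers 2 were above 1 FPKM, XCP1 at 7.40 FPKM and XCP2 at 3.97 FPKM, and none of the 6 flower markers was, the highest being AG at 0.522 FPKM. Of the 6 root markers only PYK10, at 7.50 FPKM, was above 1 FPKM. Whether the samples held tissue other than leaves was not tested. The part of each cell type in the level of a carrier was not tested.

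**Figure D5:**
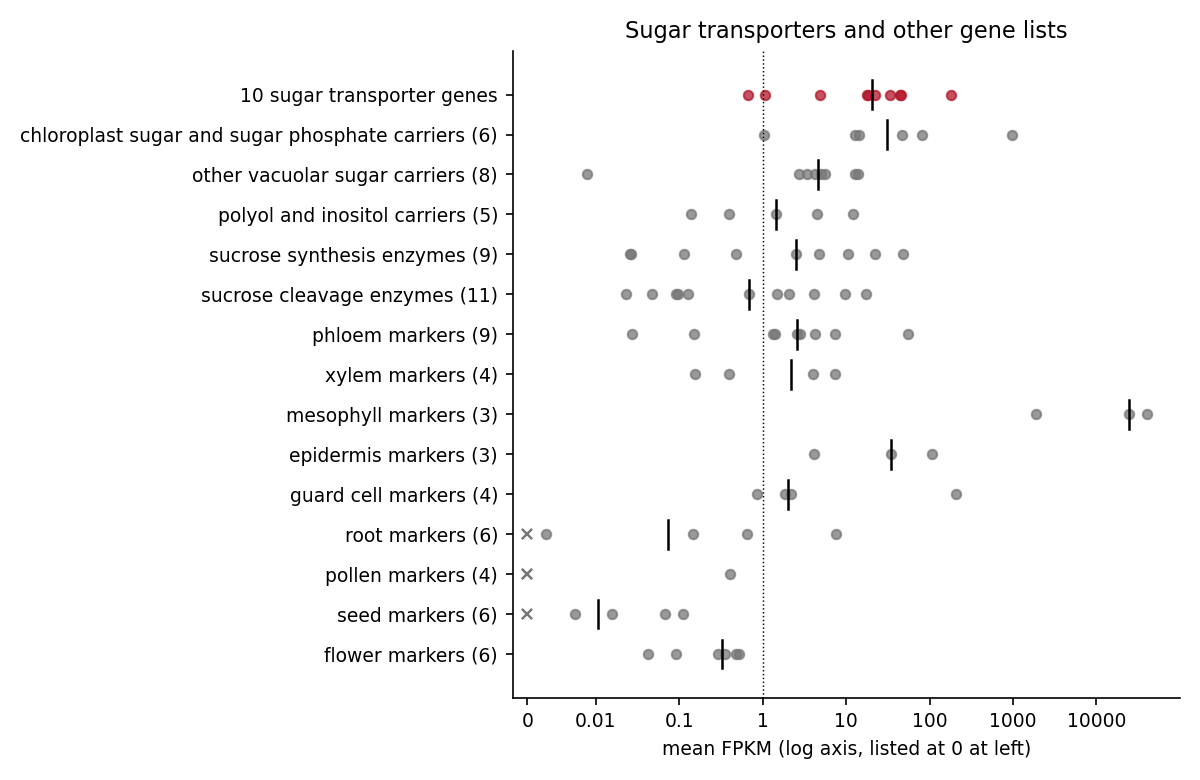
Mean FPKM (log axis, 0 at the left end) of the 10 sugar transporter genes in red and of 14 other gene lists in grey, with the number of genes in brackets, crosses for genes listed at 0 and a black line at each median above 0. The median of the 10 genes, 20.2 FPKM, lies above those of 11 of the 14 lists, and root, pollen, seed and flower markers lie mostly left of the dotted line at 1 FPKM. The 10 genes were chosen, and all 40 genes of their 3 families have a median of 1.05 FPKM (not drawn).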

How the data were processed

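RNA from 2 biological replicates of 3-week-old Col-0 (leaves in the labels, plants in the methods) was sequenced as paired ends. Alignment to TAIR10 used TopHat2 v2.0.9, and the authors deposited FPKM values per coding gene, for which they name Cufflinks v2.1.1. The sources used here do not state strand use or how multi-mapped reads were treated. From these values the mean, SD and log2 ratio (pseudocount 1 FPKM) were computed.

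The FPKM values behaved as whole reads over gene length and library total, which Cufflinks does not normally give, and the annotation behind the lengths is not stated. Of the 21309 genes above 0 in both replicates, 99.2% had a ratio of whole numbers within a relative tolerance of 1e-12. Reads and gene lengths were recovered from this, with lengths kept between the shortest coding sequence and 1% above the longest transcript of RefSeq TAIR10.1. A single solution was found for 18628 genes. Data for replicate 2 against replicate 1 were simulated by the same formula for 26705 genes. Of these 19935 were resolved, and 100% of the resolved genes were right. Simulated lengths were the longest annotated transcript or a limited part less. The lengths recovered for SWEET16, SWEET17, STP1 and STP13 fall further below it, so the simulation did not cover such lengths. Intervals on reads are exact (Poisson for a level, Clopper-Pearson for a ratio, 95%) and cover counting error only. They take each count as independent, which does not hold if both reads of a pair were counted.

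The 10 members and the 17 gene lists (124 genes) were chosen with earlier results of these data known. Named are all members and up to 4 genes of each other list by mean FPKM, besides family genes listed at 0, the 9 SUC genes, the pollen markers and AT1G11270, added after their values were seen. Of the 27411 table IDs, 26709 are in the RefSeq annotation. The alternatives were other pseudocounts (0.1 and 0.01), TPM scaling, centring, thresholds, each replicate left out and, added later, other gene lengths and plain reads. Python 3.11.15, numpy 2.4.6, pandas 2.3.3, scipy 1.17.1, matplotlib 3.10.9 and Biopython 1.88 were used. The 10 immunoprecipitation and input samples were not analysed here.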

Additional observations from a re-analysis of the deposited data

How the results depend on the processing

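The median level of the 10 genes, 20.2 FPKM, was between 19.5 and 20.9 FPKM with 1 replicate left out and 20.5 after scaling each library to the same sum (TPM). It moved to 17.3 when reads were divided by RefSeq transcript length and to 25.5 when divided by coding length, both chosen after seeing the data. The number of genes above 1 FPKM stayed at 9 in either replicate alone, was 8 per RefSeq transcript length, and was 10 at a threshold of 0.5 FPKM. The 7 genes in the top 25% and the absence of any 1.5-fold difference between replicates held under every alternative run for them. The median log2 ratio between replicates lay between -0.09 and -0.01 under the other pseudocounts, scalings and plain reads. The share of the 10 genes in the summed FPKM of their families was between 80.0% and 81.3%. No paired analysis was possible because only 1 group has values and no comparison between groups was made. Depth limits most the lowest genes, SUC4 and SUC5, which rest on 110 to 212 reads per library. SWEET12 comes next, with 598 and 624 reads.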
